A study of Mus musculus with 41 samples.

Results

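RNA from Caprin1 knockout cells harvested after 8 h of α-amanitin was compared with RNA from the same knockout clones at 0 h, the moment before exposure. The comparison used 7 of the 41 samples of the series: 2 libraries of clone 2 and 2 of clone 4 at 8 h, and 2 libraries of clone 2 and 1 of clone 4 at 0 h. They were chosen by their labels alone, and the clone was kept as a term in the test. Each clone is 1 cell line. The cells were mouse embryonic stem cells labelled as Caprin1 knockout, and the wild-type line was R1. All groups, knockout and wild type, had spent 4 days without leukaemia inhibitory factor and with 1 µM retinoic acid (RA), and α-amanitin was then added at 2 µg/ml. Knockout cells at 2 h and at 4 h (4 libraries each), and wild-type cells at 8 h and at 0 h (4 libraries each), were drawn on where a result turns on them. The labels do not say that replicates came from separate cultures. The p-values therefore measure the spread between these libraries, which may be technical.

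α-Amanitin binds RNA polymerase II and blocks messenger RNA synthesis. Once synthesis has stopped, the amount of each messenger depends on how fast it is degraded. CAPRIN1 binds messengers in the cytoplasm and joins G3BP proteins in stress granules. Retinoic acid drives stem cells out of pluripotency by binding nuclear receptors (RAR with RXR) at response elements, where it switches on its own degrading enzymes, its receptor Rarb and the Hox genes, which give cells their position along the body axis.

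The measurements were read counts per gene from poly(A)-selected RNA, given below as CPM (counts scaled to a common library size). A CPM is a share of the library, so a rise in CPM means that a transcript made up more of the messenger pool. It does not tell whether more of it was made, and how far synthesis had stopped at each time was not measured. Library totals were 8.64 to 10.6 M counts at 8 h, against 18.9 to 31.6 M at 0 h, and 21545 to 23277 genes were detected at 8 h, against 23372 to 25186 at 0 h. Each time point was a separate count table, so time and table cannot be told apart. The targeted gene, Caprin1 (chr2:103762945-103797669 in GRCm38), had 127 and 125 CPM in clone 2 and 1006 and 1049.6 CPM in clone 4 at 8 h, against 107 and 106 CPM in clone 2 and 1074 CPM in clone 4 at 0 h. Across all times Caprin1 took 104 to 174 unscaled CPM in clone 2, 971 to 1169 in the libraries labelled clone 4 knockout and 834 to 1204 in wild-type cells. The RNA of clone 4 was thus within the wild-type range, and whether its protein was lost was not measured here. Caprin1 itself did not pass the test over 8 h (log2 change 0.13, SE 0.0694, edgeR FDR = 0.156), and it did pass without the clone 4 library at 0 h (log2 change 0.27).

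Markers of stem cells, endoderm, neuroectoderm and fibroblasts were all present. Pou5f1, a core stem cell factor, had 104 and 114 CPM in clone 2 and 75.6 and 70.6 CPM in clone 4 at 8 h, against 142 and 149 CPM in clone 2 and 106 CPM in clone 4 at 0 h. Gata4, an endoderm factor, had 748 and 719.5 CPM in clone 2 and 270.0 and 227 CPM in clone 4 at 8 h, against 719 and 700.2 CPM in clone 2 and 323 CPM in clone 4 at 0 h. The summed level of 30 endoderm and basement membrane genes was 36826 to 97015 CPM at 8 h, against 41984 to 88284 CPM at 0 h. The summed level of 20 fibroblast genes was 2020.2 to 9326 CPM at 8 h, against 2329.7 to 9161 CPM at 0 h. Of 19 fibroblast genes tested, 7 fell and 1 rose, and the part of such cells in the results was not tested. The spans of both sums overlapped between times, but each span took both clones together, and the clones differed in level, as for Gata4. The overlap therefore does not tell whether the sums changed within a clone. Pou5f1 was lower at 8 h within each clone. In such bulk samples a smaller share of cells of a type and less RNA per cell cannot be told apart.

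After 8 h of α-amanitin, the named genes with the largest decreases included the RA response genes Cyp26b1, Dhrs3, Rarb and Cyp26a1 and the Hox genes Hoxb1 and Hoxa3, and the largest increases included the sterol gene Msmo1. Of 14766 genes tested, 2766 rose (18.7%) and 2806 fell (19%) at an edgeR quasi-likelihood FDR under 0.05 with Benjamini-Hochberg adjustment over all genes, 5572 in all (37.7%). Scaling by library totals alone gave 2186 rises and 3322 falls and moved the median of all genes to -0.04. Most changes were small: 289 called genes at least doubled (1.96%) and 372 at least halved (2.52%), and the median log2 change of all genes was 0.003. Over all genes tested, called or not, the clones changed in the same direction in 10439 (70.7%). Every 8 h library lay above every 0 h library for 1292 genes (8.75%) and below for 1605 (10.9%).

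Enzymes that dispose of RA and its precursors were among the genes that fell furthest. Cyp26b1 (chr6:84571414-84593908), a cytochrome P450 that oxidises RA, had 5.19 and 3.51 CPM in clone 2 and 20.6 and 19.2 CPM in clone 4 at 8 h, against 138 and 87.2 CPM in clone 2 and 238 CPM in clone 4 at 0 h. The fall was the largest among the named genes (log2 change -4.01, SE 0.287, edgeR FDR = 0.000206). No 8 h library overlapped a 0 h library, but the rule that chose the largest changes asked for that and for the same sign in both clones, so neither is support for any gene it chose. Its relative Cyp26a1 (chr19:37697738-37701536) had 207 and 191 CPM in clone 2 and 78.7 and 72.6 CPM in clone 4 at 8 h, against 768 and 631 CPM in clone 2 and 345 CPM in clone 4 at 0 h. The 8 h values were again all below the 0 h values (log2 change -1.94, SE 0.0924, edgeR FDR = 1.83e-07), although the clones stood in opposite order for both enzymes: clone 2 held less Cyp26b1 and more Cyp26a1 than clone 4. Dhrs3 (chr4:144892534-144928209), a reductase that turns retinaldehyde back into retinol, had 20.5 and 16.2 CPM in clone 2 and 10.1 and 11.6 CPM in clone 4 at 8 h, against 62.7 and 47.4 CPM in clone 2 and 112 CPM in clone 4 at 0 h. It fell in both clones (log2 change -2.32, SE 0.413, edgeR FDR = 0.0121).

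The receptor and the carrier of RA fell too. Rarb (chr14:16430839-17082331), the retinoic acid receptor that RA itself induces, had 2.83 and 2.1 CPM in clone 2 and 3.69 and 5.36 CPM in clone 4 at 8 h, against 11.1 and 10.8 CPM in clone 2 and 21.7 CPM in clone 4 at 0 h. On the log2 scale this was -2.21 (SE 0.144, edgeR FDR = 3.85e-07). The times did not overlap, as the rule that chose Rarb required. Crabp2, which carries RA to its receptors, had 14.6 and 17.7 CPM in clone 2 and 34.6 and 34.8 CPM in clone 4 at 8 h, against 41.2 and 39.1 CPM in clone 2 and 68 CPM in clone 4 at 0 h. The times did not overlap within or between clones for this gene either (log2 change -1.13, SE 0.0875, edgeR FDR = 1.49e-06). Among targets, Stra8, which licenses meiosis in germ cells, had 51.8 and 52.5 CPM in clone 2 and 53.9 and 64.4 CPM in clone 4 at 8 h, against 161 and 141 CPM in clone 2 and 138 CPM in clone 4 at 0 h. Its log2 change was -1.39 (SE 0.0836, edgeR FDR = 2.53e-07). Rec8, a meiotic cohesin, had 8.14 and 8.71 CPM in clone 2 and 25.5 and 26.8 CPM in clone 4 at 8 h, against 44.1 and 41.3 CPM in clone 2 and 109 CPM in clone 4 at 0 h. That was a log2 change of -2.17 (SE 0.0824, edgeR FDR = 7.93e-09). Both were lower in every library at 8 h than in any at 0 h, which the rule that chose Rec8 required of it. Rec8 is outside the RA list. The caudal homeobox gene Cdx1 was near the limit of detection at 8 h, at 0.401 to 2.42 CPM, against 3.91 to 6.91 CPM at 0 h (log2 change -2.06, SE 0.246, edgeR FDR = 5.00e-05). Of 26 RA response genes tested, 20 fell, 0 rose and 6 did not pass, with a median log2 change of -0.58 over a range of -4.01 to 0.45. No RA gene rose at an unadjusted edgeR p under 0.05 either, and DESeq2 gave 20 falls and 0 rises.

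The promoters of Cyp26a1 and Rarb are shown because both genes are textbook RA targets and both fell, and because theirs are the promoters of the RA list in which an RA receptor motif was found. The motif searched was the direct repeat GTTCA, 5 bases of any kind, AGTTCA on both strands, and its match stands in capitals in each 250-base window before the start site (RefSeq, GRCm38.p6, 5′ to 3′ on the gene's own strand). Cyp26a1 is on the plus strand (chr19:37697558-37697807) and Rarb on the minus strand (chr14:16575477-16575726).
Cyp26a1: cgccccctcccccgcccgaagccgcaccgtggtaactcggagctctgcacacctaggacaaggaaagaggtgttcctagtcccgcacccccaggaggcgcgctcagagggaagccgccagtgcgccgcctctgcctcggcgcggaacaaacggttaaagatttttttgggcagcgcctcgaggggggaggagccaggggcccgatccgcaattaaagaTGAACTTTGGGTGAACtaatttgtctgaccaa
Rarb: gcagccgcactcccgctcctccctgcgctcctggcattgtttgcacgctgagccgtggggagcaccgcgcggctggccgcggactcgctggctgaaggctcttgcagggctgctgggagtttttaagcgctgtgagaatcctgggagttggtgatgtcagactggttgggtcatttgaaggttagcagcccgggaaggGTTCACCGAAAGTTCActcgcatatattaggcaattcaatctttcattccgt
In Cyp26a1 the match reads on the opposite strand and begins 32 bases before the start site, and in Rarb it begins 52 bases before it. For both genes the start site used lies inside the gene span given above, not at its end. The motif was found in 3 of the 11021 tested genes that had a promoter entry (0.0272%). They were Cyp26a1, Rarb and Blvrb, all called lower, and 2 of 20 RA genes with an entry held it. The motifs were chosen after the values were seen, and a match is a description of the letters, not of binding. Only this spelling of the repeat was searched, and it is the spelling that the Cyp26a1 and Rarb promoters hold. The share is therefore not that of RA receptor elements in general, and the calls of the 3 genes are no support.

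**Figure D1:**
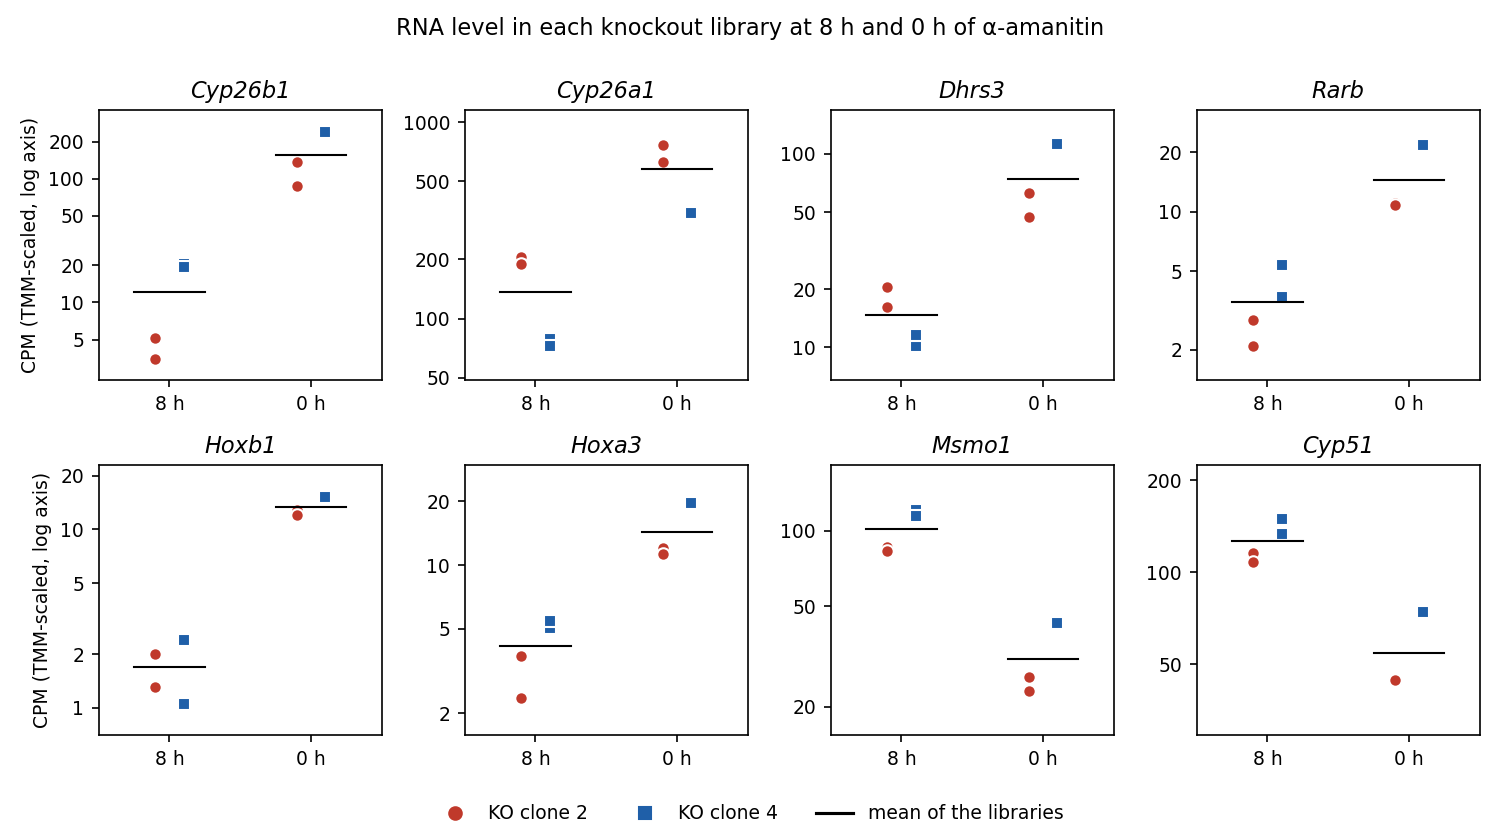
CPM on a log axis in each of the 7 knockout libraries, 8 h to the left of 0 h, for RA metabolism genes (Cyp26b1, Cyp26a1, Dhrs3), the receptor Rarb, 2 Hox genes and 2 sterol genes (Msmo1, Cyp51), with each clone marked. The RA and Hox genes sit lower at 8 h in both clones, and Msmo1 and Cyp51 sit higher.

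Almost all Hox transcripts tested fell. Of 28 Hox genes in the list 26 were tested, and 24 fell, 0 rose and 2 did not pass. Their log2 changes were -3.03 to 0.01, with a median of -1.20. Hox genes outside the list were not counted. At an unadjusted edgeR p under 0.05 and in DESeq2 the count of rises was also 0. Hoxb1, an early hindbrain Hox gene and a direct RA target, had 2.01 and 1.3 CPM in clone 2 and 1.05 and 2.4 CPM in clone 4 at 8 h, against 12.9 and 12 CPM in clone 2 and 15.3 CPM in clone 4 at 0 h. The fitted log2 change was -3.03 (SE 0.189, edgeR FDR = 2.55e-07). The times did not overlap, as the rule that chose Hoxb1 required. Hoxa3 had 2.36 and 3.71 CPM in clone 2 and 5.06 and 5.48 CPM in clone 4 at 8 h, against 12 and 11.3 CPM in clone 2 and 19.8 CPM in clone 4 at 0 h. On the log2 scale this was -1.90 (SE 0.134, edgeR FDR = 7.21e-07). Fam167a and the receptor phosphatase Ptpru were also among the 10 largest decreases, with log2 changes of -2.42 (SE 0.167) and -1.83 (SE 0.117).

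Levels between these times were read from the 2 h and 4 h tables. Mean Hoxb1 levels at 0, 2, 4 and 8 h were 12.5, 7.04, 5.78 and 1.65 CPM in clone 2 and 15.3, 7.58, 5.76 and 1.73 CPM in clone 4. Hoxb1 was lower at each later time in both clones. Cyp26b1 averaged 112, 56.3, 17.1 and 4.35 CPM in clone 2 and 238, 95, 44.8 and 19.9 CPM in clone 4. Rarb averaged 11, 11.1, 7.99 and 2.47 CPM in clone 2 and 21.7, 22.2, 16.8 and 4.53 CPM in clone 4. Comparing 8 h with 2 h, which leaves out the deeper 0 h libraries, 5167 of 13824 genes passed (37.4%): 2524 rose (18.3%) and 2643 fell (19.1%). In that comparison 17 of 26 RA genes fell and 2 rose, with a median log2 change of -0.44, and 12 of 26 Hox genes fell and 0 rose, with a median of -0.48. In wild-type cells 23 of 26 RA genes and 25 of the 26 Hox genes fell between 0 and 8 h. Over all genes in wild-type cells 25.8% fell and 20.8% rose (46.6% in all).

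Genes of sugar breakdown fell together in small steps. Of 20 glycolysis genes tested, 16 fell and 0 rose, with a median log2 change of -0.44 over a range of -1.16 to -0.15. Neither an unadjusted edgeR p under 0.05 nor DESeq2 gave a rise. The named falls were those of Aldoc, an aldolase (log2 change -1.16, SE 0.133, edgeR FDR = 3.72e-05), and Pdk1, the kinase that holds pyruvate out of mitochondria (log2 change -1.11, SE 0.136, edgeR FDR = 0.000397). Ldha, which makes lactate, had 904 and 877 CPM in clone 2 and 643 and 546 CPM in clone 4 at 8 h, against 1411 and 1396 CPM in clone 2 and 921 CPM in clone 4 at 0 h. The change, in log2 units, was -0.63 (SE 0.0632, edgeR FDR = 1.21e-05). Every 8 h library was below every 0 h library. The glucose transporter Slc2a1 had 621 and 639.6 CPM in clone 2 and 351 and 361 CPM in clone 4 at 8 h, against 1122 and 1148 CPM in clone 2 and 421 CPM in clone 4 at 0 h. Over both clones its log2 change was -0.60 (SE 0.104, edgeR FDR = 0.00153), and the clones differed (difference 0.61, SE 0.0765, edgeR FDR = 1.02e-07, clone 4 minus clone 2). Hk2, which traps glucose in the cell, fell by 0.48 on the log2 scale (SE 0.0573) and Pgk1, a kinase that makes ATP in the pathway, by 0.45 (SE 0.0611). Pgk1 averaged 334, 332, 31.1 and 231 CPM in clone 2 and 194, 196, 19.9 and 152 CPM in clone 4 at 0, 2, 4 and 8 h. It was thus far lower at 4 h than at any other time. Whether counting also differed between the 0 h and 8 h count tables was not tested. Between 2 and 8 h, 17 of 19 fell and 0 rose, with a median of -0.43. The core of the hypoxia response element, searched as GACGTG, stood on either strand in 6 of 19 glycolysis promoters (31.6%), against 967 of 11021 (8.77%) of all tested genes. It stood in 8.56% of the genes called lower and 9.42% of those called higher. This motif too was chosen after the values were seen, and only this spelling was searched. A part of hypoxia signalling in these falls was not tested.

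Of 30 pluripotency genes tested, 17 fell and 1 rose, with a median log2 change of -0.36. Nanog, a factor that sustains self-renewal, had 48.4 and 56 CPM in clone 2 and 52.6 and 45.8 CPM in clone 4 at 8 h, against 70.9 and 94.7 CPM in clone 2 and 79.1 CPM in clone 4 at 0 h. The change, in log2 units, was -0.65 (SE 0.0993, edgeR FDR = 0.000489). The times did not overlap. Pou5f1, whose library values stand above, fell less (log2 change -0.45, SE 0.0605, edgeR FDR = 0.000124). Sox2, the partner of Pou5f1 on DNA, had 39.2 and 45.5 CPM in clone 2 and 53.5 and 59.3 CPM in clone 4 at 8 h, against 55.5 and 70.8 CPM in clone 2 and 62.2 CPM in clone 4 at 0 h. Its call (log2 change -0.37, SE 0.112, edgeR FDR = 0.0233) was lost without clone 2 replicate 2 at 0 h or without either clone 2 library at 8 h. Tdgf1, a co-receptor for Nodal, fell most (log2 change -1.48, SE 0.108, edgeR FDR = 1.59e-06), then Tcl1, an AKT co-activator (log2 change -0.83, SE 0.143, edgeR FDR = 0.000753). The member that rose was Nr5a2, a nuclear receptor (log2 change 0.84, SE 0.131, edgeR FDR = 0.000338). Cell cycle genes fell in 18 of 39 and rose in 1, with a median of -0.17. The falls were led by the replication licensing factor Cdt1 (log2 change -0.63, SE 0.0654, edgeR FDR = 1.61e-05) and cyclin gene Ccnb2 (log2 change -0.61, SE 0.0611, edgeR FDR = 1.15e-05). The 1 rise, in the kinase gene Cdk4 (log2 change 0.18, SE 0.056, edgeR FDR = 0.0215), was lost when any clone 2 library, or clone 4 replicate 1 at 8 h, was left out.

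Genes of sterol and fatty acid synthesis rose. Of 24 genes tested, 22 rose, 0 fell (as in DESeq2 and at an unadjusted edgeR p under 0.05) and 2 did not pass, with a median log2 change of 0.81. Cyp51 (chr5:4080674-4104697), the lanosterol demethylase, had 115 and 108 CPM in clone 2 and 149 and 134 CPM in clone 4 at 8 h, against 44 and 44.6 CPM in clone 2 and 74.3 CPM in clone 4 at 0 h. That was a log2 change of 1.18 (SE 0.0845, edgeR FDR = 1.03e-06). Every 8 h library exceeded every 0 h library. Msmo1 (chr8:64718123-64733578), the methylsterol oxidase of the next steps, is outside the list but among the largest increases. It had 86.3 and 82.9 CPM in clone 2 and 121 and 114 CPM in clone 4 at 8 h, against 23.1 and 26.3 CPM in clone 2 and 43 CPM in clone 4 at 0 h. The fitted log2 change was 1.66 (SE 0.0819, edgeR FDR = 1.22e-07).

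Earlier steps of the pathway rose too. Hmgcs1, which makes HMG-CoA, had 189 and 205 CPM in clone 2 and 244 and 250.1 CPM in clone 4 at 8 h, against 89.4 and 101 CPM in clone 2 and 139 CPM in clone 4 at 0 h. edgeR gave a log2 change of 0.98 (SE 0.0695, edgeR FDR = 7.21e-07). Sqle, which oxidises squalene, had 116 and 114 CPM in clone 2 and 132 and 129 CPM in clone 4 at 8 h, against 49.9 and 53.9 CPM in clone 2 and 68.2 CPM in clone 4 at 0 h. On the log2 scale this was 1.08 (SE 0.0651, edgeR FDR = 2.04e-07). The times did not overlap for either. Srebf2, the transcription factor that governs the pathway, rose by 0.61 on the log2 scale (SE 0.0559, edgeR FDR = 6.48e-06). Fasn, the fatty acid synthase, rose by 0.97 (SE 0.0816, edgeR FDR = 3.53e-06). Insig1, which retains the SREBP precursors in the endoplasmic reticulum when sterols are plentiful, rose by 0.43 (SE 0.0925, edgeR FDR = 0.00375), from a level several times higher in clone 2 than in clone 4. Between 2 and 8 h, 16 of 24 list members rose and 1 fell, with a median of 0.35. Hmgcs1, Sqle, Srebf2, Fasn and Insig1, like Crabp2, Stra8, Cdx1, Ldha, Slc2a1, Hk2, Pgk1, Nanog, Pou5f1 and Sox2 above, were picked for their place in the pathway after values were seen.

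The promoters of Msmo1 and Cyp51 are shown because these enzymes act on the sterol ring in the same stretch of the pathway and both rose. Capitals mark the CCAAT box (ATTGG on the opposite strand), which binds the factor NF-Y. Both genes are on the minus strand (chr8:64733579-64733828 and chr5:4104698-4104947, RefSeq, GRCm38.p6).
Msmo1: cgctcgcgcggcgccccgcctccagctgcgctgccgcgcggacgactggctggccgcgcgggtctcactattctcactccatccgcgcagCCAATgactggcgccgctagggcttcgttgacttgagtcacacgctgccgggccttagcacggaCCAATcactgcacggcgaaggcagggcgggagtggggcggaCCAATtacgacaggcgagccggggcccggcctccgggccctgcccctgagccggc
Cyp51: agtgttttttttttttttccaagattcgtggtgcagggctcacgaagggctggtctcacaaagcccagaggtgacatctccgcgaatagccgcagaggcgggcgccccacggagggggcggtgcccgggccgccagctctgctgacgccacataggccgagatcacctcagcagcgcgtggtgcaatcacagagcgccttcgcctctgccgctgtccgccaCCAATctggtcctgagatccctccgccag
Msmo1 held 3 CCAAT boxes in these 250 bases and Cyp51 held 1. A CCAAT box was found in 14 of 15 promoters of the sterol and fatty acid list (93.3%), against 4493 of 11021 (40.8%) of all tested genes. It stood in 37.9% of the genes called higher and 44.2% of those called lower. A sterol response element, TCACNCCAC on either strand, was found in 1 of those 15, Hmgcs1, against 145 of 11021 (1.32%). That element stood in 1.11% of the genes called higher and 2.02% of those called lower. Both motifs were chosen after the values were seen.

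Other members of the 10 largest increases belonged to no one pathway. Slc5a5 (chr8:70882885-70892785), the sodium and iodide symporter, had 18.3 and 16.4 CPM in clone 2 and 3.06 and 2.97 CPM in clone 4 at 8 h, against 2.28 and 1.57 CPM in clone 2 and 1.68 CPM in clone 4 at 0 h. The change, in log2 units, was 2.61 (SE 0.378, edgeR FDR = 0.00127). Its rise was mostly in clone 2. Slco2a1, a prostaglandin transporter, had 572 and 527 CPM in clone 2 and 207 and 208 CPM in clone 4 at 8 h, against 195 and 179.5 CPM in clone 2 and 90.5 CPM in clone 4 at 0 h. Its log2 change was 1.43 (SE 0.0785, edgeR FDR = 1.39e-07). Lgals3, which encodes galectin-3, had 39.9 and 35.8 CPM in clone 2 and 47.5 and 45.1 CPM in clone 4 at 8 h, against 13.8 and 13.8 CPM in clone 2 and 18.3 CPM in clone 4 at 0 h. That was a log2 change of 1.42 (SE 0.0797, edgeR FDR = 1.39e-07). For both, every 8 h library lay above every 0 h library, as the rule that chose them required. Lrp8, a receptor for apolipoprotein E and reelin, rose by 1.63 on the log2 scale (SE 0.145) and the Wnt ligand gene Wnt4 by 1.82 (SE 0.337). The chondroitin synthase Chsy3 rose by 1.52 (SE 0.229), the sphingomyelin synthase Sgms2 by 1.49 (SE 0.109) and the giant muscle protein gene Ttn by 1.42 (SE 0.187).

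**Figure D2:**
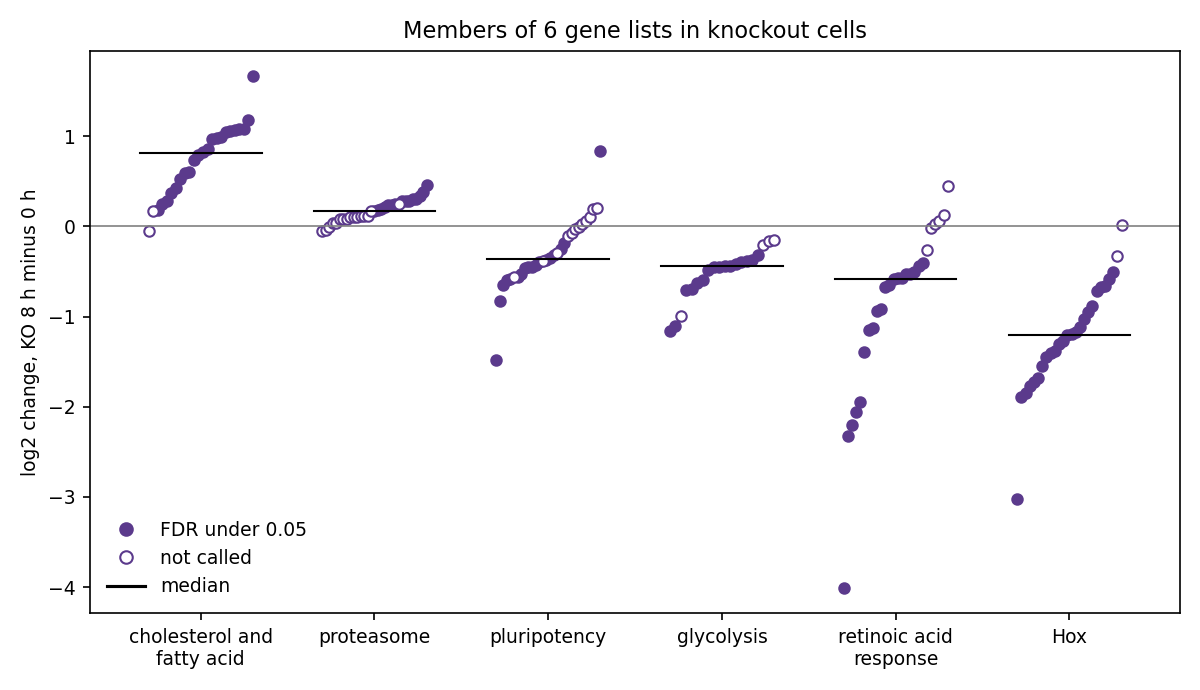
Log2 change at 8 h relative to 0 h in knockout cells for each tested member of 6 gene lists, 1 point per gene, filled where it passed the test (edgeR FDR under 0.05), with the median of each list. Hox genes (median -1.20) and RA genes (-0.58) lie mostly below 0 and sterol genes (0.81) above it.

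Immediate early genes are switched on by signalling within minutes, and many encode transcription factors with short-lived messengers. The list used also held other short-lived transcripts, such as those of Ier3 and Socs3. Its median changed little between 0 and 8 h, but many members had a large excursion in between. Between 0 and 8 h, 4 of 40 rose (10%) and 13 fell (32.5%), with a median log2 change of -0.06. Over all genes tested 18.7% rose and 19% fell, so the calls leaned to falls. In clone 4 alone 10 rose and 8 fell. Between 2 and 8 h, 35 of the 40 fell and 2 rose, with a median of -0.71. A peak, defined as a mean at 2 or 4 h over 1.5 times both the 0 h and 8 h means in both clones, was seen in 19 of 40 members, against 271 of 14766 genes (1.84%).

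Egr1, a zinc finger factor, averaged 7.53, 55, 25.3 and 4.19 CPM in clone 2 and 14.6, 214, 53 and 16.5 CPM in clone 4 at 0, 2, 4 and 8 h. Its means were several times higher at 2 h than at 0 h in both clones and at 8 h were below the 0 h mean in clone 2 and slightly above it in clone 4 (8 h against 2 h, log2 change -3.69, SE 0.0788, edgeR FDR = 7.46e-15). Atf3, a stress-responsive factor, averaged 15, 209.8, 369 and 15.7 CPM in clone 2 and 25.2, 163, 207 and 20.2 CPM in clone 4. It lay far lower at 8 h than at 2 h (log2 change -3.36, SE 0.15, edgeR FDR = 6.92e-07). Fosb, an AP-1 subunit, fell between the same times (log2 change -2.89, SE 0.189, edgeR FDR = 1.89e-08). So did Fos (log2 change -1.67, SE 0.143, edgeR FDR = 3.58e-07), Klf6 (log2 change -1.57, SE 0.0993, edgeR FDR = 1.97e-06) and Myc (log2 change -1.55, SE 0.111, edgeR FDR = 1.96e-07). These 6 genes were chosen after values were seen. Msmo1 rose between 2 and 8 h (log2 change 0.65, SE 0.177, edgeR FDR = 0.0273), a call lost without clone 2 replicate 2 at 2 h or either clone 2 library at 8 h. Cyp51 (log2 change 0.44, SE 0.0941, edgeR FDR = 0.00341) and Sgms2 (log2 change 0.36, SE 0.0975, edgeR FDR = 0.00796) rose as well.

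The members of the immediate early list that differed most between 8 h and 0 h were of several kinds. Ier3, a survival gene, had 14.8 and 12.9 CPM in clone 2 and 29.4 and 27.2 CPM in clone 4 at 8 h, against 48 and 43.3 CPM in clone 2 and 41.9 CPM in clone 4 at 0 h. The fitted log2 change was -1.19 (SE 0.232, edgeR FDR = 0.00764). Socs3, an inhibitor of cytokine signalling, had 31.3 and 29.2 CPM in clone 2 and 32.4 and 26.9 CPM in clone 4 at 8 h, against 59.4 and 59.5 CPM in clone 2 and 59.6 CPM in clone 4 at 0 h. edgeR gave a log2 change of -0.97 (SE 0.0739, edgeR FDR = 1.28e-06). Egr3 rose (log2 change 1.17, SE 0.281, edgeR FDR = 0.00554), by 0.77 without the clone 4 library at 0 h. Zfp36, which encodes a protein that speeds decay of AU-rich messengers, rose little (log2 change 0.35, SE 0.112, edgeR FDR = 0.024), a call lost when any clone 2 library was left out.

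**Figure D3:**
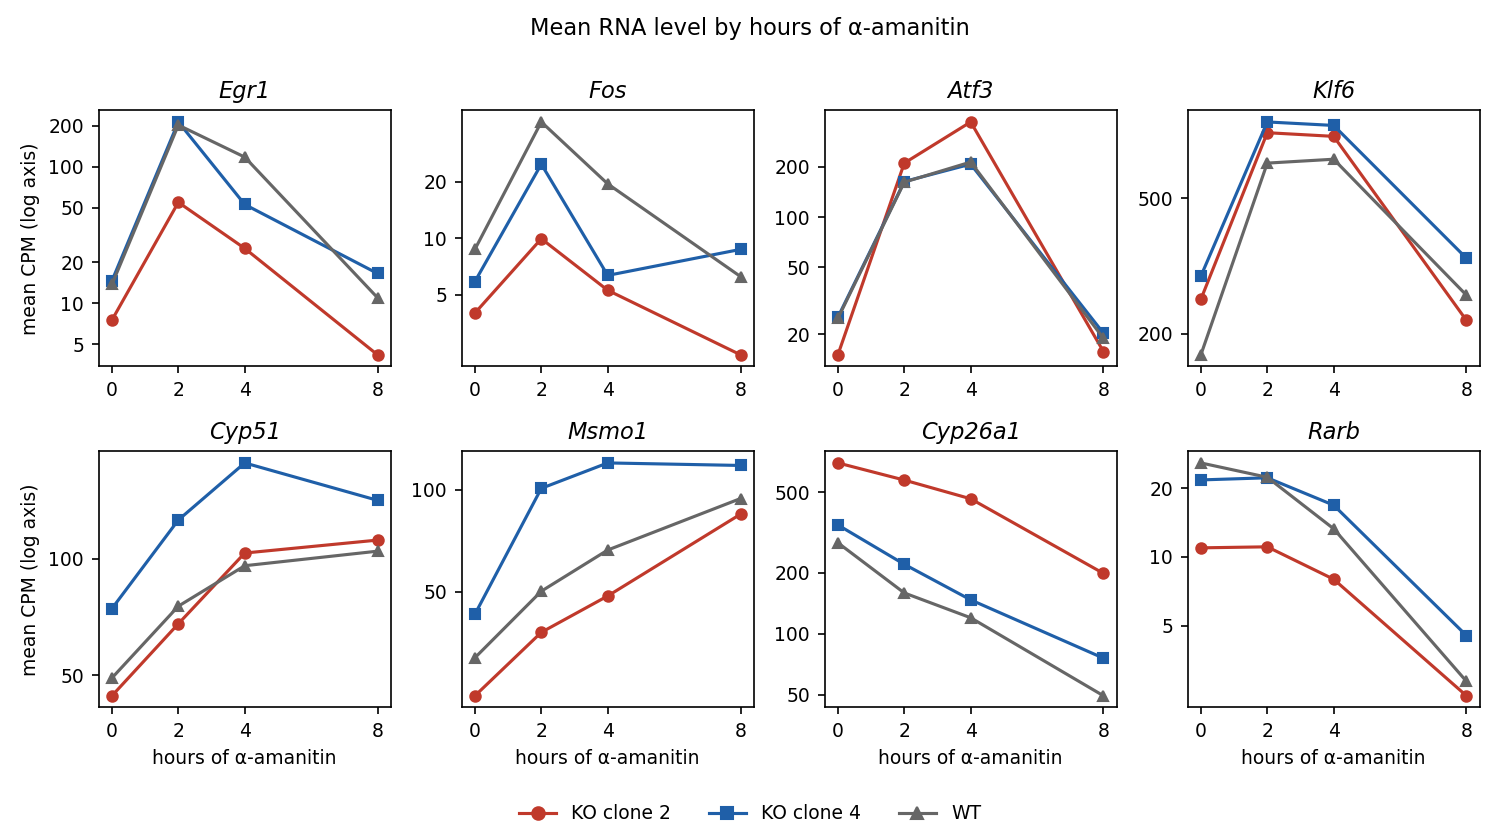
Mean CPM on a log axis at 0, 2, 4 and 8 h of α-amanitin in clone 2, clone 4 and wild-type cells for 8 genes. Egr1, Fos and Atf3 peak at 2 or 4 h in every line, Cyp26a1 and Rarb are lowest at 8 h, and Cyp51 and Msmo1 are higher at 8 h than at 0 h.

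Of 81 cytosolic ribosomal protein genes, 24 fell (29.6%) and 8 rose (9.88%), against 19% and 18.7% of all genes tested. Their median log2 change was -0.07, and no member changed by more than 0.463 upward or -0.43 downward. Among members that passed, the largest changes were those of Rpl35a (log2 change -0.43, SE 0.0985, edgeR FDR = 0.00612), Rpl17 (log2 change -0.41, SE 0.0618, edgeR FDR = 0.000276), Rpl30 (log2 change 0.30, SE 0.0721, edgeR FDR = 0.00608) and Rpl39 (log2 change 0.28, SE 0.0834, edgeR FDR = 0.0191). The Rpl39 call was lost without clone 2 replicate 1 at 0 h, clone 4 replicate 2 at 0 h (log2 change 0.17) or clone 2 replicate 1 at 8 h, and Rpl35a changed by -0.25 without clone 4 replicate 2 at 0 h. Ribosomal protein genes have many processed pseudogenes that can share their reads, so these values are uncertain. Of 31 proteasome genes, 15 rose and 0 fell, with a median of 0.17. Psmb3, a catalytic-core subunit (log2 change 0.46, SE 0.0748, edgeR FDR = 0.000477), and Psmd6, a regulatory-particle subunit (log2 change 0.39, SE 0.0776, edgeR FDR = 0.00193), are examples. DESeq2 gave 14 rises and 0 falls, and 0 fell at an unadjusted edgeR p under 0.05. Of 7 mitochondrially encoded messengers, which a mitochondrial polymerase makes, 0 passed in edgeR or DESeq2 (log2 changes -0.57 to 0.13), and 1 did at an unadjusted edgeR p under 0.05.

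Among 26 p53 targets, 8 rose (30.8%) and 3 fell (11.5%), against 18.7% and 19% of all genes tested (median 0.11). The DNA repair gene Ddb2 (log2 change -0.58, SE 0.115, edgeR FDR = 0.00167) and Xpc (log2 change -0.39, SE 0.0822, edgeR FDR = 0.00252), another damage sensor, fell. The ribonucleotide reductase subunit Rrm2b (log2 change 0.47, SE 0.112, edgeR FDR = 0.0054) and the death receptor Tnfrsf10b (log2 change 0.47, SE 0.0606, edgeR FDR = 8.72e-05) rose. Cdkn1a, the cell cycle inhibitor p21, picked after values were seen, had 117 and 112 CPM in clone 2 and 236 and 234 CPM in clone 4 at 8 h, against 109 and 94.9 CPM in clone 2 and 175 CPM in clone 4 at 0 h. That was a log2 change of 0.29 (SE 0.0713, edgeR FDR = 0.00665) (0.18 without the clone 4 library at 0 h). Of 27 genes of the integrated stress response, 9 rose (33.3%) and 8 fell (29.6%) (median 0.02). Scaling by library totals gave 8 rises and 10 falls. Ddit4, which restrains mTOR (log2 change -0.997, SE 0.159, edgeR FDR = 0.00183), and Vldlr, a lipoprotein receptor (log2 change -1.20, SE 0.0994, edgeR FDR = 2.46e-06), fell, and Slc7a5, an amino acid transporter, rose (log2 change 0.68, SE 0.0787, edgeR FDR = 4.36e-05). Slc7a11, the cystine transporter (log2 change 0.57, SE 0.206, edgeR FDR = 0.045), lost its call without either clone 2 library at 0 h, clone 2 replicate 1 at 8 h (log2 change 0.36) or clone 4 replicate 2 at 8 h, and reached 0.86 without clone 4 replicate 2 at 0 h. Of 27 interferon-stimulated genes 5 fell (18.5%), near the share over all genes, and 0 rose (median -0.15). At an unadjusted edgeR p under 0.05 there were 2 rises, and DESeq2 gave 0. The falls were led by Mx2 (log2 change -1.15, SE 0.278, edgeR FDR = 0.00576) and Oasl2 (log2 change -1.06, SE 0.221, edgeR FDR = 0.00364), both antiviral effectors.

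Of 32 CAPRIN1 partners and stress granule genes, 3 rose (9.38%) and 4 fell (12.5%), with a median log2 change of 0.01. Over all genes tested 18.7% rose and 19% fell. G3bp1, the main partner of CAPRIN1, had 449.6 and 462 CPM in clone 2 and 370.1 and 355 CPM in clone 4 at 8 h, against 480.1 and 479.9 CPM in clone 2 and 366 CPM in clone 4 at 0 h. It did not pass (log2 change -0.03, SE 0.0532, edgeR FDR = 0.682), and neither did G3bp2 (log2 change -0.02, SE 0.0572, edgeR FDR = 0.764). Caprin2, its paralogue, gave log2 change -0.21, SE 0.073, edgeR FDR = 0.0332, a call lost when either clone 2 library at 0 h, either at 8 h, or clone 4 replicate 2 at 8 h was left out. The RNA-binding proteins Igf2bp2 (log2 change -0.58, SE 0.055, edgeR FDR = 7.77e-06) and Igf2bp3 (log2 change -0.27, SE 0.060, edgeR FDR = 0.00332) fell, and Larp1, which binds capped ribosomal protein messengers, rose (log2 change 0.26, SE 0.0568, edgeR FDR = 0.00332). Larp4, a poly(A)-binding relative, also rose (log2 change 0.24, SE 0.0634, edgeR FDR = 0.0101), a call lost without clone 2 replicate 1 at 0 h or clone 2 replicate 2 at 8 h.

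Over all genes tested 18.7% rose and 19% fell between 0 and 8 h. Deadenylation and decapping genes gave 6 rises (20.7%) and 5 falls (17.2%) in 29, near those shares. Genes of the exosome and nonsense-mediated decay gave 7 rises (25.9%) and 3 falls (11.1%) in 27. In the second list Smg6, the nonsense-mediated decay endonuclease (log2 change -0.50, SE 0.0599, edgeR FDR = 4.77e-05), and Dis3l2, an exonuclease of uridylated RNA (log2 change -0.43, SE 0.0886, edgeR FDR = 0.0022), fell. Smg1, the kinase of that pathway (log2 change 0.70, SE 0.0804, edgeR FDR = 4.39e-05), and Exosc1, an exosome subunit (log2 change 0.41, SE 0.0937, edgeR FDR = 0.00432), rose. Of 15 genes for proteins that bind AU-rich elements, 5 rose and 5 fell (33.3% each). Zfp36l1 (log2 change -0.44, SE 0.0592, edgeR FDR = 0.000108) and Zfp36l3 (log2 change -1.61, SE 0.279, edgeR FDR = 0.000723) are decay-promoting relatives of Zfp36, and both fell. Zc3h12c is a relative of the nuclease regnase-1 (log2 change 0.63, SE 0.145, edgeR FDR = 0.00448). Elavl2 is a stabilising protein (log2 change 0.51, SE 0.165, edgeR FDR = 0.0261). Without the clone 4 library at 0 h the calls of Zfp36l3 (log2 change -0.98), Zc3h12c (0.34) and Elavl2 (0.12) were lost. Elavl2 also lost its call without clone 2 replicate 1 at 0 h or either clone 4 library at 8 h.

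**Figure D4:**
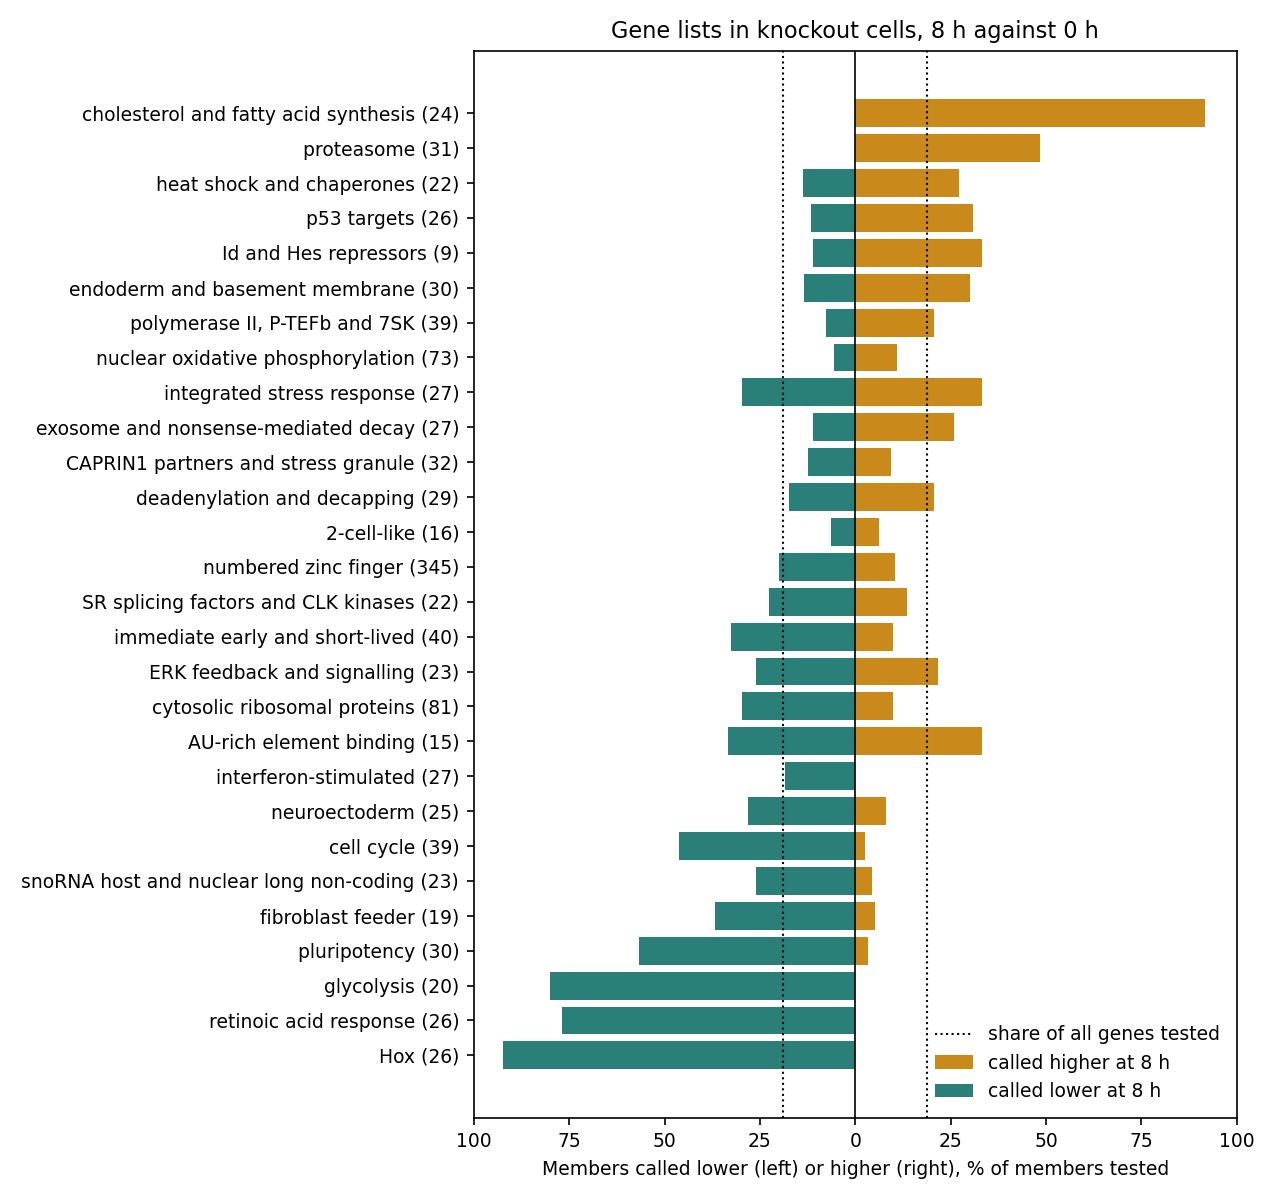
Percent of the tested members of each gene list that rose or fell at 8 h relative to 0 h in knockout cells (edgeR FDR under 0.05), with dotted lines at the share over all genes (18.7% rose, 19% fell). Hox (24 of 26), RA (20 of 26) and glycolysis genes (16 of 20) stand at the falling end, and sterol genes (22 of 24 rose) at the other.

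The clones differed in the size of many changes. Tested over all 15 knockout libraries, the 8 h change was more positive in clone 4 for 983 of 15376 genes (6.39%) and in clone 2 for 1079 (7.02%), and 1261 and 751 with scaling by library totals. DESeq2 gave 456 and 671, and without the filter on low counts 611 were more positive in clone 2. Clone 4 had 1 library at 0 h, so each of these differences rests on it. Per2, a circadian repressor, had 2.85 and 1.6 CPM in clone 4 and 8.5 and 5.41 CPM in clone 2 at 8 h, against 4.47 CPM in clone 4 and 2.6 and 2.11 CPM in clone 2 at 0 h. Its log2 change was -0.98 in clone 4 and 1.51 in clone 2 (difference -2.49, SE 0.362, edgeR FDR = 2.22e-06). The changes of the clones had opposite signs. Ednrb, the endothelin B receptor, changed by -2.32 in clone 4 and -0.62 in clone 2 on the log2 scale (difference -1.72, SE 0.318, edgeR FDR = 0.000104). Nupr1, a stress-induced chromatin protein, changed by -1.67 in clone 4 and 0.23 in clone 2 (difference -1.91, SE 0.313, edgeR FDR = 1.80e-05). Tfec, a relative of MITF, changed by -1.20 in clone 4 and 0.48 in clone 2 (difference -1.72, SE 0.304, edgeR FDR = 5.56e-05). Dhrs3 changed by -3.35 in clone 4 and -1.61 in clone 2 (difference -1.75, SE 0.271, edgeR FDR = 0.000926).

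In the other direction, Gem, a small GTPase, had 8.33 and 11.8 CPM in clone 4 and 4.13 and 4.01 CPM in clone 2 at 8 h, against 4.47 CPM in clone 4 and 5.21 and 6.44 CPM in clone 2 at 0 h. Its log2 change was 1.17 in clone 4 and -0.51 in clone 2 (difference 1.65, SE 0.301, edgeR FDR = 8.44e-05). P2rx7, an ATP-gated channel, changed by 0.74 in clone 4 and -0.90 in clone 2 (difference 1.60, SE 0.286, edgeR FDR = 6.20e-05). Fgf13, a channel-binding protein, changed by 1.03 in clone 4 and -0.58 in clone 2 (difference 1.60, SE 0.349, edgeR FDR = 0.000946), a call lost without clone 2 replicate 2 at 8 h. Edn1, the endothelin-1 ligand, was at 0.472 and 0.601 CPM in clone 2 at 8 h, and its difference (difference 1.59, SE 0.494, edgeR FDR = 0.023) was lost without clone 2 replicate 1 at 0 h or either clone 2 library at 8 h. By list, 13 of 30 endoderm genes and 13 of 31 proteasome genes had a more positive change in clone 2, and 13 of 40 immediate early genes in clone 4. The RA list differed in 6 of 26 members and the sterol list in 5 of 24, all 5 with the larger rise in clone 2.

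**Figure D5:**
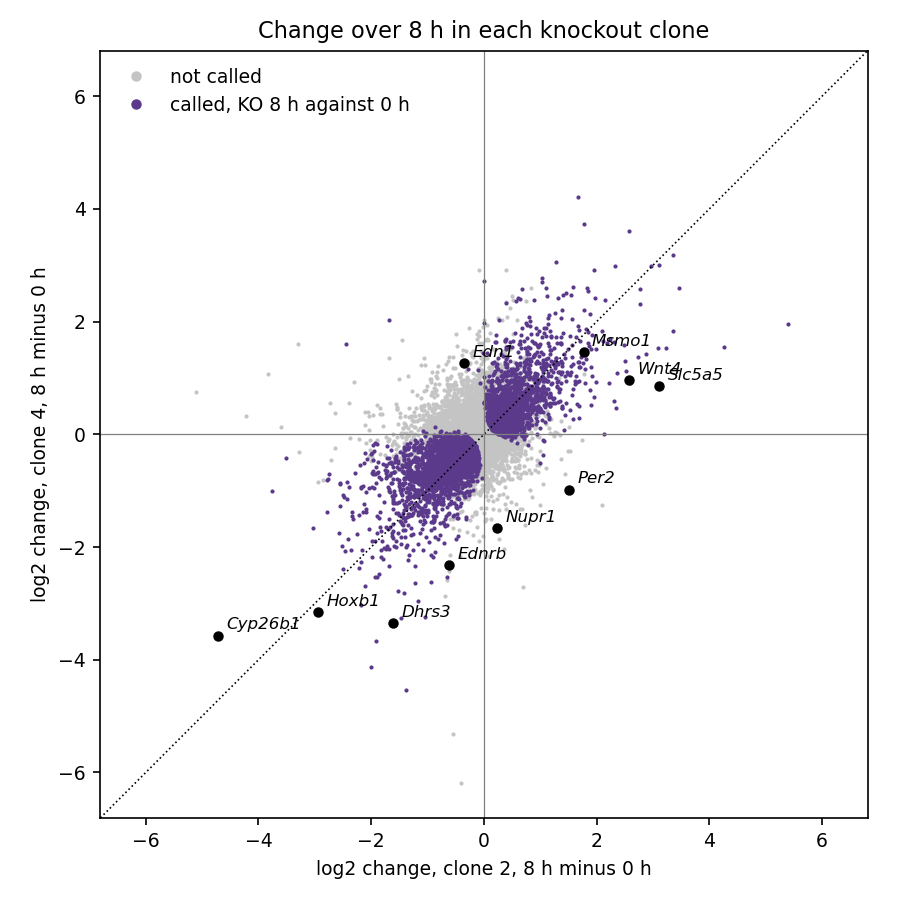
Log2 change at 8 h relative to 0 h in clone 4 against that in clone 2 for every gene tested, 1 point per gene, coloured where the gene passed the 8 h against 0 h test, with a dotted line where the clones are equal. Called genes lie mostly where both clones changed the same way, which the test over both clones favours, and named genes such as Per2, Nupr1 and Slc5a5 lie far from the line.

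The same 8 h change was set against that of wild-type cells over 15 libraries. The mean change of the clones exceeded the wild-type change for 182 of 15730 genes (1.16%) and fell short of it for 166 (1.06%), 2.21% in all. Clone 2 alone differed from wild-type cells in 612 genes and clone 4 alone in 62. The count moved by over 1.5 times when 12 of the 14 libraries were left out in turn, between 138 (without clone 2 replicate 1 at 8 h) and 1326 (without wild-type replicate 4 at 0 h), and without wild-type replicate 3 at 0 h it was 906. Dhrs3 changed by -1.61 in clone 2 and -3.35 in clone 4, against -4.86 in wild-type cells (difference 2.38, SE 0.18, edgeR FDR = 3.50e-07). Rarb changed by -2.18 in clone 2 and -2.26 in clone 4, against -3.22 in wild-type cells (difference 1.00, SE 0.237, edgeR FDR = 0.0329). Rec8 changed by -2.35 in clone 2 and -2.04 in clone 4, against -2.95 in wild-type cells (difference 0.75, SE 0.142, edgeR FDR = 0.00994). Cyp26a1 changed by -1.83 in clone 2 and -2.18 in clone 4, against -2.54 in wild-type cells (difference 0.54, SE 0.122, edgeR FDR = 0.0258). Of 26 RA genes, 4 had a less negative change in knockout cells and 0 a more negative one by this test, and of 27 Hox genes 2 and 0. At 0 h Dhrs3 had 62.7 and 47.4 CPM in clone 2 and 112 CPM in clone 4, against 113 ± 8.86 CPM in wild-type cells (SD, n = 4). Its 0 h level was thus below that of wild-type cells in clone 2 but close to it in clone 4. The part of this gap in the result was not tested.

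Of 24 sterol and fatty acid genes, 7 had a more positive change in knockout than in wild-type cells and 0 a less positive one. Srebf2 changed by 0.61 in clone 2 and 0.54 in clone 4, against 0.09 in wild-type cells (difference 0.48, SE 0.124, edgeR FDR = 0.0468). Fasn changed by 1.09 in clone 2 and 0.74 in clone 4, against 0.37 in wild-type cells (difference 0.54, SE 0.134, edgeR FDR = 0.0413). The lipoprotein receptor Lrp8, outside the list, changed by 1.90 in clone 2 and 1.20 in clone 4, against 0.86 in wild-type cells (difference 0.69, SE 0.168, edgeR FDR = 0.0379). Slc5a5 changed by 3.11 in clone 2 and 0.85 in clone 4, against -0.38 in wild-type cells (difference 2.36, SE 0.253, edgeR FDR = 5.28e-05). Wnt4 changed by 2.57 in clone 2 and 0.96 in clone 4, against 0.33 in wild-type cells (difference 1.43, SE 0.178, edgeR FDR = 0.000273). Tec, a tyrosine kinase, changed by 0.63 in clone 2 and -0.78 in clone 4, against -1.45 in wild-type cells (difference 1.38, SE 0.16, edgeR FDR = 0.00012). Wnt6, another Wnt ligand, changed by 0.94 in clone 2 and 1.06 in clone 4, against -0.47 in wild-type cells (difference 1.47, SE 0.289, edgeR FDR = 0.0165), a call lost without clone 2 replicate 1 at 8 h or clone 4 replicate 1 at 8 h.

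The 5 named genes with the most negative difference had all risen in wild-type cells. Thbs1, the matrix protein thrombospondin-1, changed by -0.06 in clone 2 and 0.29 in clone 4, against 1.48 in wild-type cells (difference -1.36, SE 0.10, edgeR FDR = 3.50e-07). Pappa, a protease of insulin-like growth factor carriers, changed by 0.01 in clone 2 and 0.04 in clone 4, against 1.46 in wild-type cells (difference -1.43, SE 0.139, edgeR FDR = 1.79e-05). Adamts5, a proteoglycan-cutting protease, changed by -1.14 in clone 2 and -0.14 in clone 4, against 1.02 in wild-type cells (difference -1.65, SE 0.201, edgeR FDR = 0.000201). Ptgs2, the inducible prostaglandin synthase, changed by -0.10 in clone 2 and 1.15 in clone 4, against 2.13 in wild-type cells (difference -1.61, SE 0.199, edgeR FDR = 0.000559). Bdnf, a neurotrophin, changed by -0.44 in clone 2 and 0.48 in clone 4, against 1.55 in wild-type cells (difference -1.53, SE 0.225, edgeR FDR = 0.00149). Their 0 h levels were not alike. Thbs1 averaged 532 CPM in clone 2 and had 2400 CPM in the clone 4 library at 0 h, against 301 ± 20.9 CPM in wild-type cells (SD, n = 4). For clone 4 alone against wild-type cells the calls of Ptgs2, Bdnf, Slc5a5, Wnt4, Wnt6 and Tec were lost. That check, and leaving out single libraries, covered only the genes named for the largest differences. Whether the differences of Rarb, Rec8, Cyp26a1, Srebf2, Fasn and Lrp8 hold in these settings was not tested.

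The deposited lists of genes from CAPRIN1 immunoprecipitation, 1 named for 2I against RA and 1 for control against RA, had 2345 and 2059 genes tested. In the first, 537 rose (22.9%) and 487 fell (20.8%), with a median log2 change of 0.02, and scaling by library totals turned this to 420 rises and 611 falls. In the second, 565 rose (27.4%) and 347 fell (16.9%), with a median of 0.05. Listed genes were at a median of 94.8 and 112.8 CPM. Of all tested genes in the highest of 5 bins of mean CPM, 28.1% rose and 15.5% fell, and in the lowest bin 11.6% rose and 14.3% fell, so these shares move with a gene's level. They move with gene length as well: 16.5% rose and 15.6% fell in the shortest of 5 bins, and 18.9% rose and 22.6% fell in the longest.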

How the data were processed

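Poly(A)-selected, stranded RNA-seq libraries were made from 500 ng of total RNA and sequenced on a NextSeq500, per the labels' protocols. The deposited values are raw read counts per gene, 1 table per time point. The submitters' processing notes name FastQC 0.11.9, STAR 2.4.0.1, TopHat, Cufflinks, Cuffdiff and DESeq2 with GRCm38 (mm10), without saying which made the counts. Which program counted, and with which strand setting, is not given in the sources used here, so overlapping and antisense genes are uncertain. Depth is given in the report as the range of total counts of the knockout libraries at 8 h and at 0 h. In wild-type cells the totals were 7.24 to 8.80 M at 8 h and 3.95 to 22.7 M at 0 h. Replicate 1 of clone 4 at 0 h had no column in the tables used here and was not analysed.

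Tests on the counts used edgeR 4.0.16 under R 4.3.3, with TMM scaling and filterByExpr (robust quasi-likelihood F test, Benjamini-Hochberg adjustment over all genes tested, FDR under 0.05). The knockout comparison had a clone term and 4 residual degrees of freedom. Standard errors are the log2 change over the square root of F. Fitting steps were tested on simulated data. DESeq2 1.42.0, other scalings, no filter, a replicate block and leaving out each library were alternatives. Level values are TMM-scaled CPM over all 31 libraries.

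Genes named were the 10 largest changes in each direction (mean of at least 5 CPM, same sign in both clones, no overlap of times, predicted genes left out), up to 2 called members per direction of each described list (mean of at least 1 CPM), the 5 largest differences per direction between clones and between knockout and wild type, and Caprin1, Caprin2, G3bp1 and G3bp2. Some genes that this rule names are not reported here. Others are said to be chosen after values were seen. Members and the 30 lists written by hand were chosen with earlier results of these data known. Gene names came from the deposited tables and RefSeq.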

Additional observations from a re-analysis of the deposited data

Results flagged for a closer look

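Single libraries stood apart from the other 3 knockout libraries at 8 h in 2 of the 102 genes checked. Stra8 was at 64.4 CPM in clone 4 replicate 2, and Wnt6 was at 16.1 CPM in clone 2 replicate 1. With groups of 4, chance sets about 1 in 20 groups apart in this way, a rate that takes the 4 libraries as 1 population although they are 2 of each clone.

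The 8 h change differed between the clones by an edgeR test of the difference itself (FDR under 0.05). It was more negative in clone 4 than in clone 2, with the log2 difference in brackets, for Per2 (-2.49), Slc5a5 (-2.26), Nupr1 (-1.91), Dhrs3 (-1.75), Ednrb (-1.72), Tfec (-1.72), Wnt4 (-1.63), Chsy3 (-1.06), Fam167a (-0.87), Tcl1 (-0.80), Lrp8 (-0.70), Pdk1 (-0.67), Rpl35a (-0.45), Gata4 (-0.42), Cyp51 (-0.40), Psmd6 (-0.38), Slc7a5 (-0.37), Fasn (-0.36), Slco2a1 (-0.35), Msmo1 (-0.33) and Caprin1 (-0.30). It was more positive in clone 4 than in clone 2 for Gem (1.65), P2rx7 (1.60), Fgf13 (1.60), Edn1 (1.59), Fos (1.30), Ier3 (1.17), Egr1 (1.02), Ddit4 (0.85), Elavl2 (0.83), Zc3h12c (0.61), Slc2a1 (0.61), Vldlr (0.52) and Klf6 (0.38). Each of these differences rests on 1 clone 4 library at 0 h.

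The change in knockout cells differed from that in wild-type cells by the same kind of test. The difference, knockout minus wild type on the log2 scale, was positive for Dhrs3 (2.38), Slc5a5 (2.36), Wnt6 (1.47), Wnt4 (1.43), Tec (1.38), Rarb (1.00), Rec8 (0.75), Lrp8 (0.69), Fasn (0.54), Cyp26a1 (0.54) and Srebf2 (0.48). It was negative for Adamts5 (-1.65), Ptgs2 (-1.61), Bdnf (-1.53), Pappa (-1.43), Thbs1 (-1.36) and Klf6 (-0.57).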

How the results depend on the processing

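Between 0 and 8 h in knockout cells, median-of-ratios scaling, library totals, DESeq2 and no filter kept the counts within 1.5 times, with 2069 rises and 3753 falls without the filter. Without a clone term 171 genes passed (71 higher, 100 lower). Leaving out single libraries gave 4071 to 6315 calls (1946 to 3162 higher, 2125 to 3153 lower), and 4371 to 4997 for 8 h against 2 h (2123 to 2623 and 2194 to 2374).

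The clone difference gave 611 lower calls without the filter and 1127 with DESeq2 (456 higher, 671 lower), and 1532 to 1817 without single libraries (676 to 847 and 832 to 1044). The knockout and wild-type difference gave 1000 calls without the filter (342 higher, 658 lower), 595 with DESeq2 (295 and 300), 612 for clone 2 alone (274 and 338), 62 for clone 4 alone (36 and 26), and 138 to 1326 without single libraries (53 to 673 and 82 to 653). The causes were not tested. Leaving out the 1 clone 4 library at 0 h gave no value for these differences.

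Changes that turned sign had not passed the test: Caprin1 (-0.0402), G3bp1 (0.0118) and G3bp2 (0.0148) in clone 4 alone, and Gata4 in clone 2 alone (0.0689). Leaving out single libraries moved G3bp2 over -0.0534 to 0.0011 and Gata4 over -0.1726 to 0.0706. Replicate numbers did not pair the libraries: in clone 2 the deviations at 8 h and 0 h correlated at 0.09. With a replicate block, 2501 genes rose and 2544 fell between 0 and 8 h, and the count was 2273 for the clone difference, 506 for knockout against wild type and 5020 for 8 h against 2 h. Clone 4 had 1 library at 0 h, which limits every result that needs its baseline.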

Other observations

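Numbered zinc finger genes, most of them for transcription factors, gave 69 falls (20%) and 36 rises (10.4%) in 345 tested between 0 and 8 h. Over all genes 19% fell and 18.7% rose. The median log2 change of the zinc finger genes was -0.03. Between 2 and 8 h the counts were the other way round, with 120 of 340 higher and 50 lower at 8 h and a median of 0.18. Genes of ERK feedback and signalling gave 5 rises and 6 falls in 23 between 0 and 8 h (9 and 5 in clone 4 alone), and 2 rises and 15 falls between 2 and 8 h, where 9 of them had a peak at 2 or 4 h in both clones. In 16 genes of the 2-cell-like state, 1 rose and 1 fell in knockout cells, while 11 rose and 0 fell in wild-type cells; whether the lines differ as a list was not tested, and 1 gene had a more negative change in knockout cells.

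Of 30 endoderm and basement membrane genes, 9 rose and 4 fell, but in clone 4 alone 5 rose and 13 fell. Of 25 neuroectoderm genes 2 rose (8%) and 7 fell (28%). The shares over all genes tested were 18.7% and 19%. Sox17, an endoderm factor picked after values were seen, did not pass (log2 change -0.05, edgeR FDR = 0.575), nor did Gata4 (-0.10, edgeR FDR = 0.388). RNA polymerase II, P-TEFb and 7SK genes gave 8 rises and 3 falls in 39, splicing factor and CLK genes 3 and 5 in 22, nuclear oxidative phosphorylation genes 8 and 4 in 73 (4 and 8 with scaling by library totals), chaperones 6 and 3 in 22, snoRNA host and nuclear long non-coding genes 1 and 6 in 23, and Id and Hes repressor genes 3 and 1 in 9. The 2 mitochondrial ribosomal RNAs and the 1 polymerase III transcript tested did not pass in edgeR, and replication-dependent histone genes were not analysed here.

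In the 4 h table, 57 of 14766 genes (0.386%) had every library at least 4-fold below all libraries of the other times. Of these, 32 were ribosomal protein genes and 1 was a glycolysis gene. At the other times the count was 0. Means at 4 h in the time courses are to be read with this in mind.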
